A study of Mus musculus with 3 samples.

Results

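Among the FOXA2 peaks of embryonic mouse liver progenitors, 721 peaks in 312 clusters had FOXA2 neighbours close by and no HNF4A peak. They were chosen by position: nuclear peaks of both factors within 10 kb of an input region were dropped, the remaining peaks were joined wherever gaps were 12500 bp or less, and clusters with 2 or more FOXA2 peaks and 0 HNF4A peaks were taken. The 721 peaks were 8.17% (95% Wilson interval 7.61 to 8.76%) of the 8828 FOXA2 peaks left after dropping 510 of 9338. Spacing, cluster size, the absence of HNF4A and a distance of over 10 kb from input were thus fixed by that choice, and are given below as descriptions. All 721 peaks entered every description, with no filter on score.

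The study mapped FOXA2 and HNF4A by chromatin immunoprecipitation with sequencing (ChIP-seq) in hepatoblasts, the fetal cells that give rise to hepatocytes and bile duct cells. The groups were 1 library with a FOXA2 antibody, 1 library with an HNF4A antibody and 1 library of input chromatin without antibody. All came from wild-type C57BL/6 embryos at day 14.5, with livers pooled and cells enriched for the surface protein DLK1 on magnetic beads, and no treatment was given. With 1 library per group there was no replicate check and no test, so differences below describe these lists of regions only. Each list gives a position on build mm9 and a whole-number score, the authors' own value of a region, with no stated definition. Sequencing depth is unknown. The lowest score was 11 in the FOXA2 list, 16 in the HNF4A list and 12 in the input list, so each list ends at a threshold, and a peak missing from a list does not show that the factor was absent there. Wilson intervals cover counting error only, and neighbouring peaks are not independent.

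FOXA2 is a forkhead transcription factor that can bind its sites on DNA wrapped in nucleosomes, and FOXA factors act early in the specification of liver from endoderm. HNF4A is a nuclear receptor that drives many genes of hepatocytes and often occupies the same liver enhancers as FOXA2. Input chromatin shows where sequence reads pile up without any antibody, which commonly happens in repeated or duplicated sequence.

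Most clusters were pairs. Of the 312 clusters, 255 held 2 FOXA2 peaks, 32 held 3, 19 held 4, 3 held 5, and 1 each held 6, 7 and 11. Pairs thus made up 81.7% of clusters and held 70.7% of the peaks. Clusters spanned a median of 5.70 kb (interquartile range 2.6 to 9.9 kb, from 0.7 to 63.4 kb). With a joining limit of 5 kb the median was 3182 bp, with one of 25 kb 11475.5 bp, and in clusters of 3 or more 12097 bp. It was 7009 bp when FOXA2 peaks under 1 kb apart counted as 1 site. Together the 312 clusters spanned 2.15 Mb, of which the peaks themselves took up 363 kb.

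Within these clusters, neighbouring FOXA2 peaks lay a median of 3472 bp apart, measured between their edges (interquartile range 1104 to 6924 bp over 409 gaps). This median follows the joining limit, at 1607.5 bp with a limit of 5 kb and 6319 bp with one of 25 kb. It also moved with other settings, to 4856.5 bp when FOXA2 peaks under 1 kb apart counted as 1 site. The median gap was 2930 bp at an input distance of 1 kb and 2769 bp in clusters of 3 or more. Without clusters that hold a wide peak, described below, it was 4183 bp. Gaps under 1 kb numbered 93, or 22.7% of all gaps, and 38 of them were under 250 bp. A further 56 gaps measured 1 to 2 kb, 109 measured 2 to 5 kb, 105 measured 5 to 10 kb and 46 were longer. In FOXA2 clusters that also held HNF4A, FOXA2 neighbours at most 12500 bp apart had a median gap of 4628.5 bp over 994 gaps, and 168 of these, or 16.9%, were under 1 kb; HNF4A peaks may lie in these gaps. The largest gap inside the clusters was 12433 bp, and the smallest gap just beyond the limit between FOXA2 neighbours was 12519 bp. The nearest kept HNF4A peak to any clustered peak was 12673 bp away. At the input limit, the closest clustered peak lay 10131 bp from an input region and the farthest dropped FOXA2 peak 9952 bp. Dropped FOXA2 peaks lay within 12500 bp of 30 clustered peaks in 13 clusters, and dropped HNF4A peaks lay that close to 0. The input rule may thus have shortened these 13 clusters.

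Over all 312 clusters, FOXA2 peaks clustered without HNF4A had a lower median score and a higher median width than other kept FOXA2 peaks. In the 224 clusters without a wide peak, described below, both medians were close to those of single peaks. That division was made after widths were seen and leaves out wide peaks among clustered peaks only. Scores over all 312 clusters had a median of 13 and quartiles of 11 and 17. The 3525 single FOXA2 peaks without HNF4A had a median of 14 and quartiles of 12 and 19. For the 1955 FOXA2 peaks in clusters of 2 or more that also held HNF4A the median was 17 (13 to 26), and it was also 17 for the 2627 FOXA2 peaks that stood alone beside HNF4A. The lowest score of 11 was held by 26.5% of clustered peaks without HNF4A (23.4 to 29.8%), against 18.5% of single peaks (17.2 to 19.8%) and 12.6% of peaks clustered with HNF4A (11.2 to 14.2%). At the other end, 28 clustered peaks, or 3.88% (2.70 to 5.56%), reached 34, the score that bounds the highest 10% of the FOXA2 list. That score was reached by 6.41% of single peaks (5.65 to 7.27%) and 14.3% of peaks clustered with HNF4A (12.8 to 15.9%). With ties split evenly, a clustered peak without HNF4A ranked above a single peak in 42.3% of pairs of peaks, and above a peak clustered with HNF4A in 32.7%.

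The difference in width over all clusters lay mainly in the upper part of the distribution. Clustered peaks without HNF4A had a median width of 390 bp and an upper quartile of 547 bp. Single peaks had a median of 360 bp and an upper quartile of 408 bp, and peaks clustered with HNF4A a median of 362 bp and an upper quartile of 408 bp. A width of 574 bp or more, above the 95th percentile of the single peaks, is called wide here; this limit was set after widths were seen. Wide peaks numbered 164 of 721 clustered peaks, 22.7% (19.8 to 25.9%), against 4.14% of peaks clustered with HNF4A (3.35 to 5.12%) and, by the construction of the limit, 5.02% of single peaks. The share of wide clustered peaks was 2.72% when only FOXA2 peaks at or above the list's median score were joined, 11.4% when peaks within 1 Mb of input were dropped, and 34.6% when no peak was dropped for input. Peaks over 1 kb made up 6.38% of clustered peaks (4.82 to 8.41%), against 0.539% of single peaks (0.345 to 0.840%) and 0.307% of peaks clustered with HNF4A (0.141 to 0.668%).

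**Figure D1:**
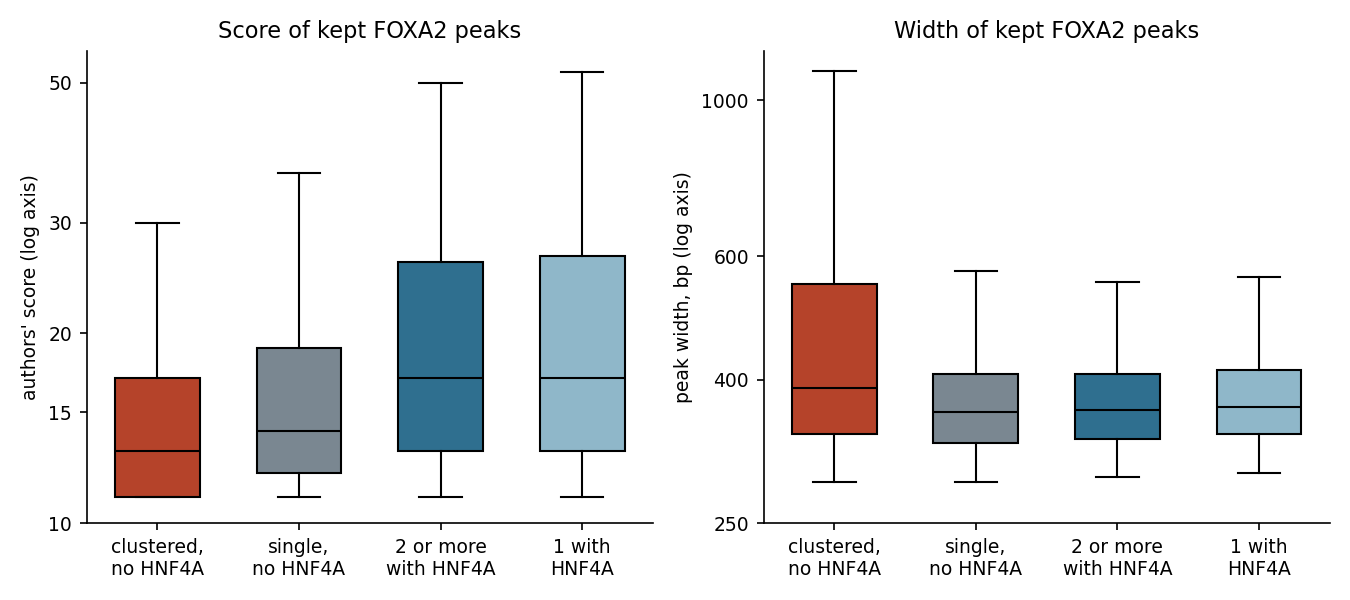
Score (left) and width in bp (right) of kept FOXA2 peaks on log axes, for peaks clustered without HNF4A, single without HNF4A, in clusters of 2 or more with HNF4A, and 1 beside HNF4A. Boxes show the median and quartiles and whiskers the 5th and 95th percentiles over peaks of 1 library; the first group has the lowest median score, 13, and the highest upper quartile of width, 547 bp.

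Wide, low-scoring peaks made up more of the larger clusters. The share of wide peaks was 12.2% in pairs (9.60 to 15.3%), 28.1% in clusters of 3 (20.1 to 37.8%), 71.1% in clusters of 4 (60.0 to 80.0%) and 53.8% in clusters of 5 or more (38.6 to 68.4%). Median width was 372 bp in pairs, 434.5 bp in clusters of 3, 747 bp in clusters of 4 and 693 bp in clusters of 5 or more. Median score was 14 in pairs and 12 in each larger size. The highest score was 97 in pairs, 38 in clusters of 3, 30 in clusters of 4 and 18 in clusters of 5 or more. These maxima come from 510, 96, 76 and 39 peaks, and a maximum tends to fall with fewer peaks. Between the 2 broad size classes, 20.4% of peaks in clusters of 3 or more reached the FOXA2 list's median score of 15 (15.5 to 26.3%), against 44.9% of peaks in pairs (40.6 to 49.2%). Median gaps were 3713 bp in pairs, 3862.5 bp in clusters of 3, 2627 bp in clusters of 4 and 2213 bp in clusters of 5 or more. The cluster of 11 peaks had a median gap of 4784.5 bp, above that of pairs.

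**Figure D2:**
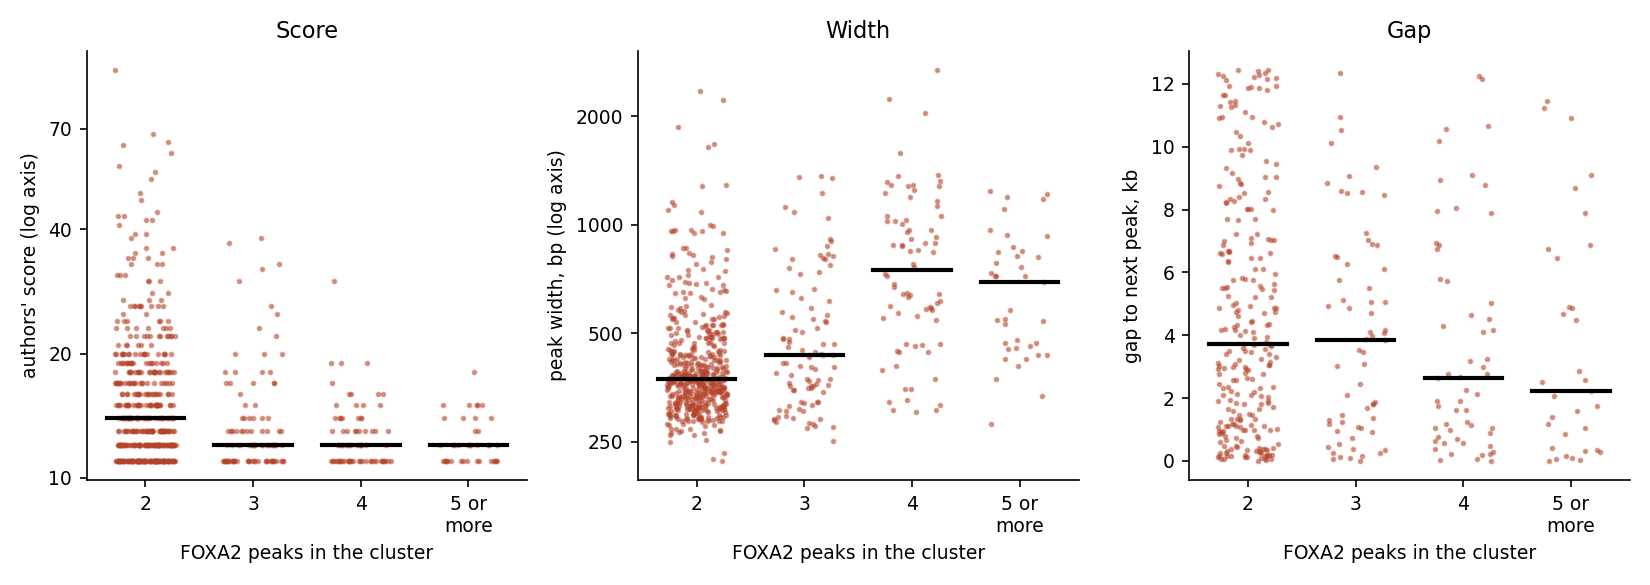
Each point is 1 FOXA2 peak (score and width, log axes) or 1 gap between neighbours (kb), by the number of FOXA2 peaks in its cluster, and bars are medians. Median width was 372 bp in pairs and 747 bp in clusters of 4, while scores above 40 occurred in pairs only.

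The clusters could be described in 2 parts, a division made after widths were seen. A total of 224 clusters with 466 peaks held no wide peak, and 207 of them were pairs. The other 88 clusters, with 255 peaks, held 1 or more wide peaks. The score was 12 at the median in clusters with a wide peak, with quartiles of 11 and 14. In clusters without one it was 14, with quartiles of 12 and 19. The score of 34 was reached by 1 peak, or 0.392%, in clusters with a wide peak (0.0693 to 2.19%), against 27 peaks, or 5.79%, in clusters without (4.01 to 8.30%). None of the 164 wide peaks scored above 20. The gap was a median of 1991 bp where both neighbours were wide and 4136 bp where neither was. Set against single peaks, the peaks of clusters without a wide peak ranked above them in score in 49.4% of pairs of peaks. Their median score was the same as that of single peaks, 14, and 5.79% against 6.41% reached the score of 34. Their median width was 360.5 bp, against 360 bp in single peaks, and they ranked above single peaks in width in 48.2% of pairs of peaks. Leaving out wide peaks by itself lowers this width. It also raises the score, since wide clustered peaks had a median score of 12. The single peaks kept their wide ones, 177 of 3525.

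Nearness to input chromatin moved with width, and clusters of 4 or more lay nearer to input than smaller ones at the median. Of the clustered peaks without HNF4A, 106 lay 10 to 50 kb from an input region, 14.7% (12.3 to 17.5%), although all peaks within 10 kb had been dropped. The same distance held 1.5% of single peaks (1.15 to 1.96%) and 0.614% of peaks clustered with HNF4A (0.351 to 1.07%). Clusters with a wide peak lay within 50 kb of input in 33 of 88 cases, 37.5% (28.1 to 47.9%), against 3 of 224 clusters without one, 1.34% (0.457 to 3.86%). The median distance to input was 3.93 Mb for peaks of pairs, 3.63 Mb in clusters of 3, 117.7 kb in clusters of 4 and 29.6 kb in clusters of 5 or more. Wide peaks made up 64.2% of clustered peaks at 10 to 50 kb from input and 59.6% at 50 to 200 kb, against 26.4% and 13.9% of single peaks in the same ranges. The share of wide peaks was 15.6% at 200 to 1000 kb, 13.1% at 1000 to 5000 kb and 9.84% beyond, against 3.71%, 4.47% and 4.55% of single peaks. The share was thus higher among clustered than among single peaks also far from input. Over 1 Mb from input, 491 clustered peaks had a median score of 14 and a median width of 371 bp. The 2967 single peaks at that distance had medians of 15 and 359 bp. There, clustered peaks ranked above single peaks in 45.5% of pairs of peaks by score and in 54.9% by width. Dropped FOXA2 peaks, those within 10 kb of input, had a median score of 13 and a median width of 591.5 bp, and 51.6% of them were wide (47.2 to 55.9%). The part of input chromatin in these values was not tested.

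**Figure D3:**
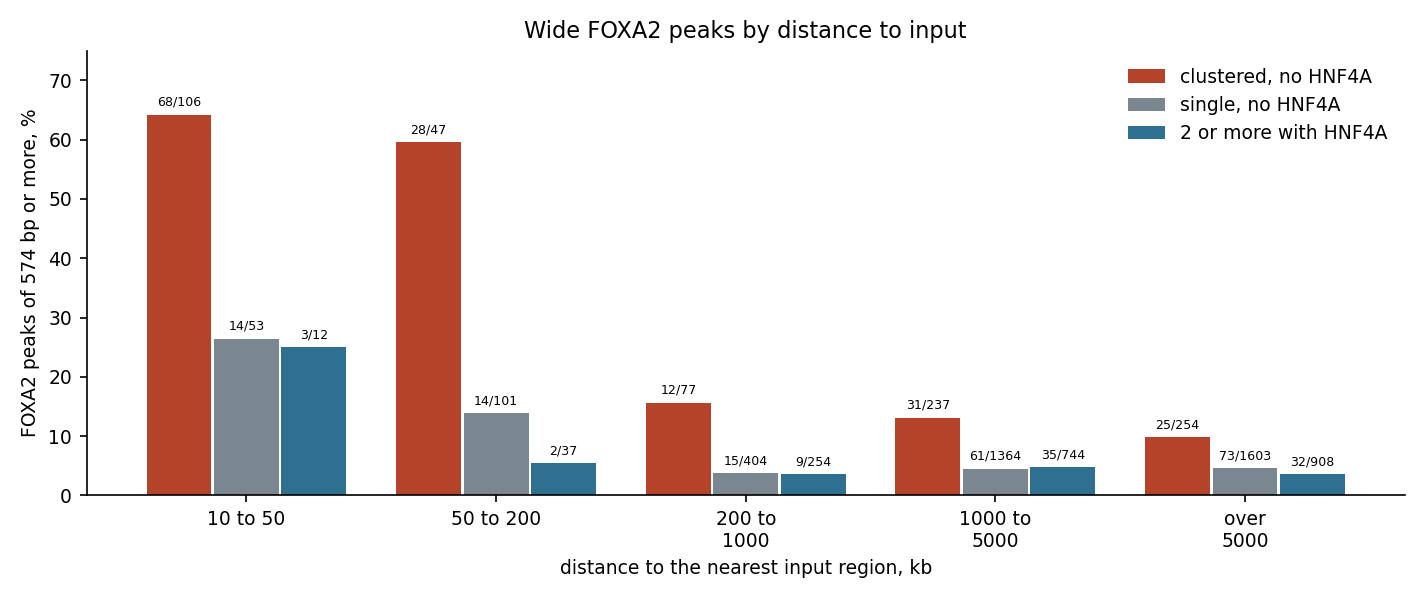
Share of FOXA2 peaks of 574 bp or more, in %, by distance to the nearest input region in kb, for peaks clustered without HNF4A, single without HNF4A, and in clusters of 2 or more with HNF4A; numbers over the bars are wide peaks over all peaks. Clustered peaks without HNF4A had the highest bar at every distance, 64.2% at 10 to 50 kb and 9.84% beyond 5000 kb.

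The cluster with the most FOXA2 peaks was also the longest, and its peaks stood at the threshold. It lay on chromosome 13 at 12903970 to 12967342, over 63.4 kb, with 11 peaks, and was 10.9 kb from input and 267.1 kb from HNF4A. All 11 peaks scored 11 or 12, their widths ran between 425 and 781 bp, and gaps between 63 and 11238 bp separated them. The next, on chromosome 5 at 95198447 to 95219215, held 7 peaks over 20.8 kb. From left to right their scores were 15, 18, 12, 12, 11, 13 and 15 and their widths 373, 478, 1105, 1215, 452, 838 and 693 bp. The highest score belonged to the second peak from the left, which was not among the 4 wide ones. Input lay 10.8 kb away and HNF4A 1.15 Mb away. Both clusters lay just over 10 kb from input, so the input rule may have shortened them.

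A cluster of 6 peaks on chromosome 14 at 42326035 to 42335348 packed them into 9.31 kb, with scores of 11, 12, 15, 11, 11 and 11 and 4 wide peaks. It lay 21.6 kb from input. A cluster of 5 on chromosome 4 at 41822259 to 41835268 had scores of 11, 14, 15, 11 and 14, and its 2 central peaks of 817 and 1244 bp were only 11 bp apart. Its distance to input was 10.2 kb, so the input rule may have shortened it too. The cluster of 5 on chromosome 2 at 151309710 to 151321806 looked alike in score and width, with scores of 14, 11, 12, 13 and 15 and widths of 1179, 460, 404, 815 and 931 bp, but the nearest input region was 18.8 Mb away. Another cluster of 5, on chromosome 17 at 15099985 to 15128210, had scores of 11, 12, 12, 14 and 12, with 2 wide peaks over 28.2 kb, and lay 1.35 Mb from input. Of the 6 clusters of 5 or more peaks, 4 thus lay 21.6 kb or less from input and 2 over 1 Mb from it. The cluster farthest from HNF4A, on chromosome 14 at 3266802 to 3282370, held 4 peaks with scores of 15, 15, 12 and 12. It lay 5.37 Mb from the nearest kept HNF4A peak and 138.5 kb from input.

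Ranked by their lowest score, the strongest clusters were narrow pairs remote from input. A lowest score tends to fall with more peaks, so this ranking favours pairs. It also favours narrow peaks, since no wide clustered peak scored above 20. The pair whose weaker peak scored highest lay on chromosome 15. Its peaks at 54964747 to 54965088 (score 65, 342 bp) and 54970631 to 54970988 (score 44, 358 bp) were 5542 bp apart, with HNF4A 86.1 kb away and input 19.9 Mb away. This was the only 1 of the 255 pairs in which both peaks reached the score of 34. The second, also on chromosome 15, had peaks at 6009322 to 6009634 (score 39) and 6021852 to 6022214 (score 31), separated by 12217 bp. That gap is close to the limit for joining, so with a shorter limit these 2 peaks would count as single. The next 2 tied, with a weaker peak of score 26. One lay on chromosome 4 at 49396491 to 49400136, with scores of 26 and 33 and a gap of 2893 bp, and the other on chromosome 1 at 181763775 to 181766872, with scores of 31 and 26 and a gap of 2336 bp. All 8 peaks of these pairs were between 313 and 396 bp wide.

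**Figure D4:**
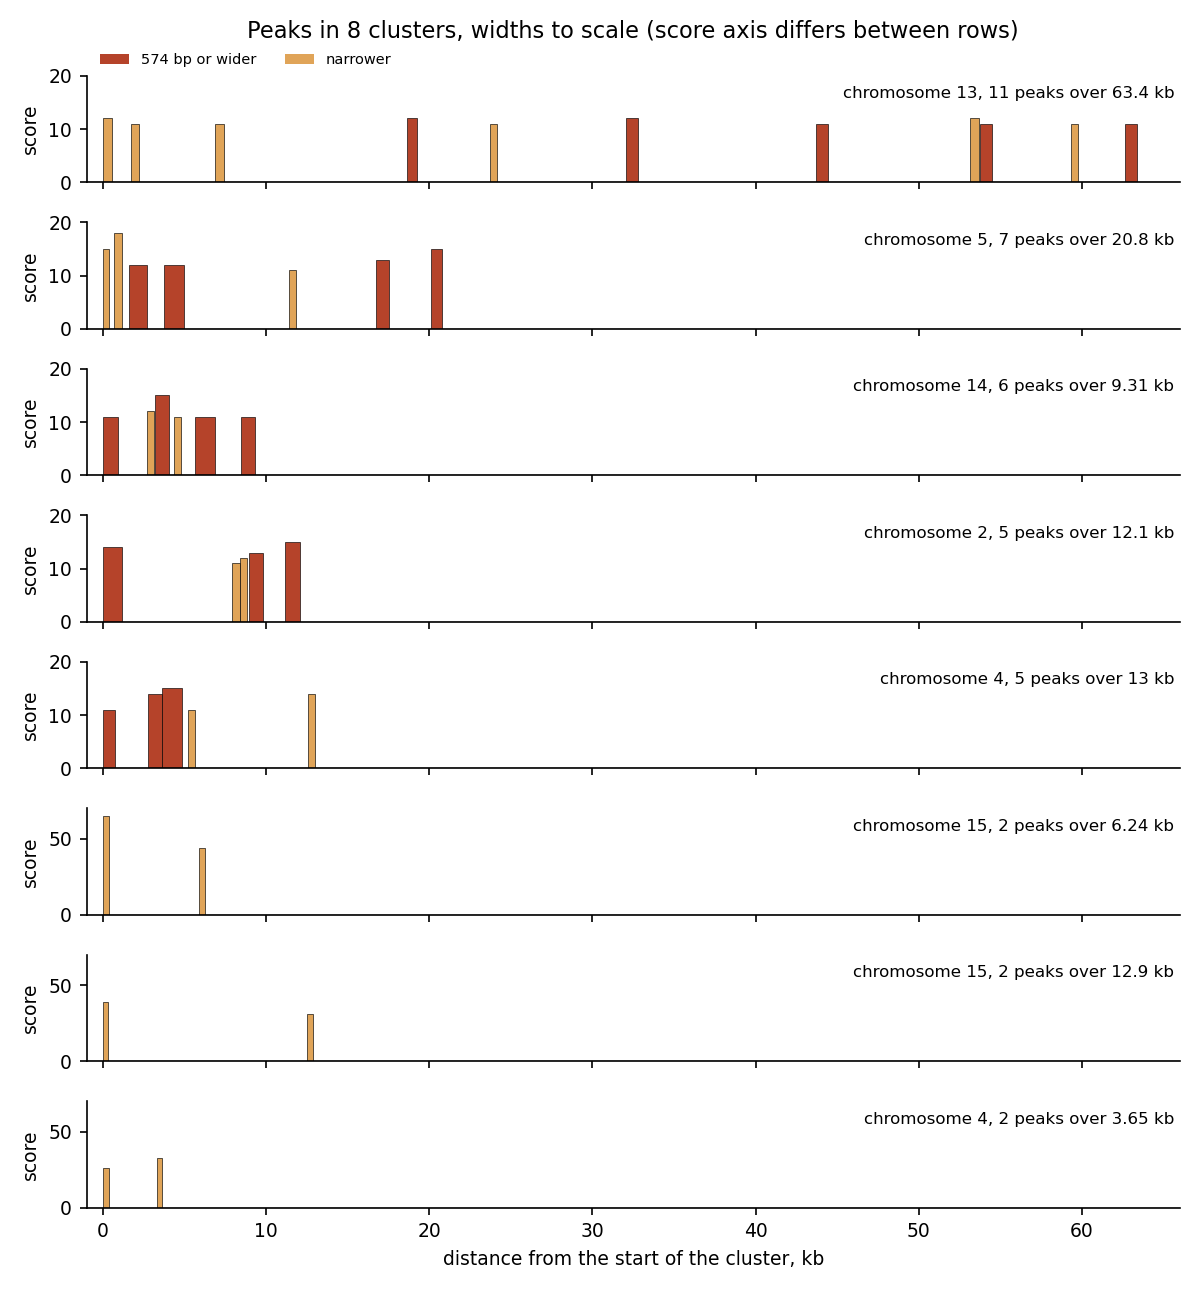
Peaks of 5 clusters with the most FOXA2 peaks and 3 pairs with the highest-scoring weaker peak (of clusters that tie for the last place, the one with the higher summed score), by distance from the cluster's start in kb; bar height is the authors' score and bar width the peak width, to scale, with a different score axis for the pairs. The large clusters hold wide bars with scores of 11 to 18, and the pairs narrow bars with scores of 26 to 65.

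Of the 5 highest-scoring clustered peaks, 4 were paired with a peak of score 12 to 17, around the FOXA2 list's median of 15. The highest, on chromosome 3 at 98257745 to 98258143 with a score of 97, was paired over 4010 bp with a peak of score 17. The next, on chromosome 1 at 193899487 to 193899833 with a score of 68, had a peak of score 15 at 625 bp. After the pair on chromosome 15, the peak on chromosome 5 at 64266085 to 64266439 (score 64) was joined over 6860 bp to one of score 12. The peak on chromosome 2 at 33438233 to 33438567 (score 61) was joined over 8029 bp to another of score 12. HNF4A lay 46.1 kb from the cluster on chromosome 3, 24.0 kb from that on chromosome 1, 19.7 kb from that on chromosome 5 and 30.1 kb from that on chromosome 2. The shortest cluster of all, 698 bp on chromosome 13 at 29620283 to 29620980, held peaks of score 16 and 12 only 86 bp apart.

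Across all 255 pairs the 2 scores were only loosely related. The higher peak had a median score of 17 and the lower peak a median of 12, and their ratio was a median of 1.3 (interquartile range 1.1 to 1.6, highest 5.7). In 40 pairs, or 15.7%, the higher score was at least 2 times the lower. The lower peak stood at the lowest score of 11 in 100 pairs, or 39.2%, so for many pairs membership rested on a peak at the threshold of the list. Both peaks reached the list's median of 15 in 61 pairs, or 23.9%. Spearman's rho between the left and the right score was 0.11 over 255 pairs, and between the left and right width 0.13, as descriptions, since all pairs share 1 library and its threshold. The gap had a rho of 0.078 with the higher score. Both peaks were wide in 14 pairs and 1 peak was in 34.

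The nearest kept HNF4A peak lay well beyond the joining distance for most of these peaks. The median distance of a clustered peak to HNF4A was 102.9 kb (interquartile range 40.5 to 250.8 kb), against 72.5 kb (33.1 to 172 kb) for single FOXA2 peaks without HNF4A. The distance was larger in clusters with a wide peak, with a median of 235.9 kb, against 59.8 kb in clusters without one. Clusters themselves lay near each other in places: 54 of 312, or 17.3% (13.5 to 21.9%), had another such cluster within 100 kb. This was so for 34 of 88 clusters with a wide peak, 38.6% (29.1 to 49.1%), and for 20 of 224 without one, 8.93% (5.85 to 13.4%).

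The clusters were unevenly spread over chromosomes, and also within chromosome 17. The share of kept FOXA2 peaks that were clustered without HNF4A ran from 3.56% on chromosome 18 (1.94 to 6.43%) and 4.15% on chromosome 12 (2.60 to 6.54%) to 13.1% on chromosome 7 (10.4 to 16.3%) and 15.6% on chromosome 17 (12.1 to 19.8%). On chromosome 17, 10 of 19 clusters held a wide peak, on chromosome 7 11 of 28, and on X 6 of 7. All 10 of those on chromosome 17 lay between positions 6219821 and 15128210. The high share of chromosome 17 thus rests in part on 1 stretch, and the intervals treat neighbouring peaks as independent. Chromosomes 6, 15 and 18 had 14, 12 and 5 clusters, and 0 of them held a wide peak. The Y chromosome had 5 kept FOXA2 peaks and no cluster. Of the clustered peaks, 30 lay below position 4 Mb of their chromosome, the end that holds the centromere in mouse, 4.16% (2.93 to 5.88%), against 1.13% of single peaks (0.834 to 1.54%).

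The same rule with the factors exchanged gave 1797 HNF4A peaks in 778 clusters without FOXA2, 15.4% of kept HNF4A peaks. The lists end at different thresholds, so the FOXA2 and HNF4A counts are set side by side only. Clusters of 3 or more made up 18.3% of the FOXA2 clusters and 22.2% of the HNF4A clusters. Median gaps were 3472 bp for FOXA2 and 3792 bp for HNF4A. FOXA2 clusters had 22.7% of peaks above the 95th percentile of FOXA2 single peaks, whereas HNF4A clusters had 5.84% above that of HNF4A single peaks. The median score was 13 in FOXA2 clusters against 14 in single FOXA2 peaks, and 23 in HNF4A clusters against 21 in single HNF4A peaks. Within 50 kb of input lay 14.7% of the peaks in FOXA2 clusters and 0.612% of the peaks in HNF4A clusters. For single FOXA2 peaks this share was 1.5%, and for single HNF4A peaks it was not computed. The lists also differed near input outside the clusters: 510 of 9338 FOXA2 peaks but 57 of 11703 HNF4A peaks had been dropped at the start.

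To describe how these clusters depend on position, lists were moved by fixed distances of 25, 50, 100 and 200 kb in both directions and the clusters were counted again. Moving the whole HNF4A list left FOXA2 peaks in place, and 692 to 887 clusters of 2 or more FOXA2 peaks were then without HNF4A, against 312 at the deposited positions. Each of the 8 moves gave a higher count of FOXA2 clusters without HNF4A than the deposited positions did. These moves could take HNF4A away from the 1955 FOXA2 peaks clustered with it, which then count. Since the absence of HNF4A is the rule itself, the higher counts do not describe the 312 clusters and are given as descriptions only. Clusters of 5 or more FOXA2 peaks without HNF4A were few throughout, with 6 at the deposited positions and 7 to 10 after the moves. Moving every second FOXA2 peak separated neighbours, but it also took FOXA2 peaks away from HNF4A. It gave 258 to 395 clusters, a range that holds the 312 deposited ones, and 243 to 363 pairs, against 255. Clusters of 3 or more came to 15 to 32 after these moves, against the deposited 57, and those of 5 or more to 0 to 3, against the deposited 6. Every move was longer than the joining limit of 12500 bp, so it breaks up runs of neighbours by construction. The lower counts of larger clusters are therefore given as descriptions only. Every second peak still kept its order, so part of the clustering was retained in these moves.

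**Figure D5:**
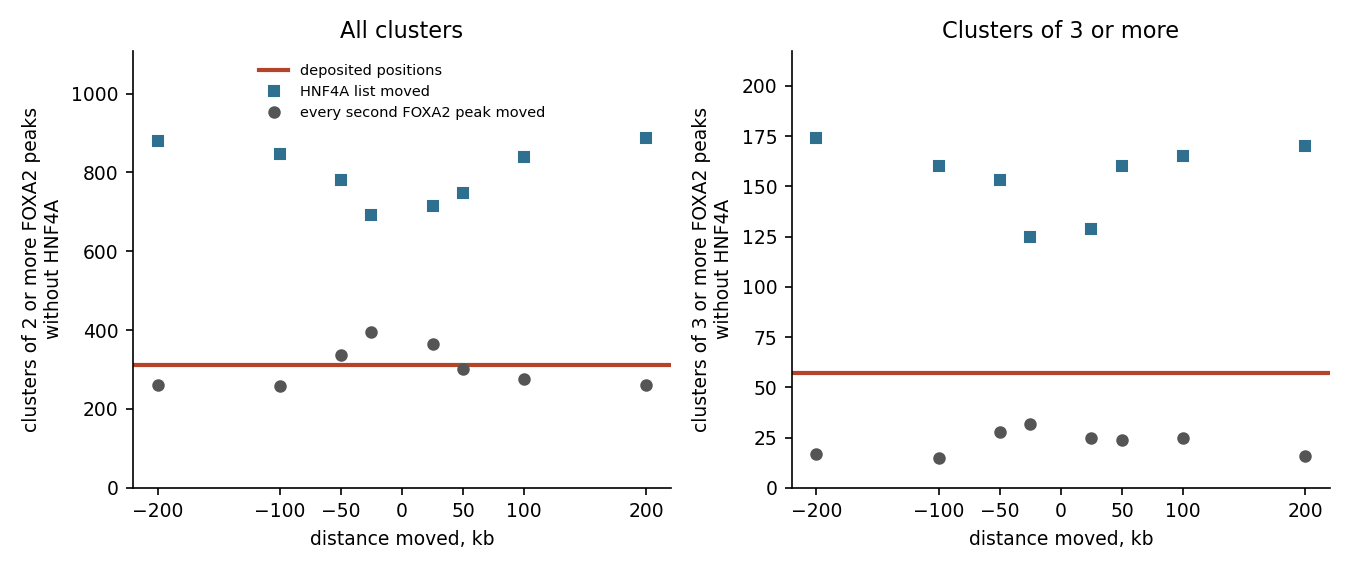
Clusters of 2 or more (left) and of 3 or more (right) FOXA2 peaks without HNF4A at the deposited positions (line) and after the whole HNF4A list (squares) or every second FOXA2 peak (circles) was moved by the distance on the x axis, in kb. The 312 deposited clusters lie inside the range of the circles, 258 to 395, and the 57 clusters of 3 or more lie above theirs, 15 to 32. Moving every second peak breaks up runs of 3 or more by construction.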

How the data were processed

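The files hold 1 list of regions per library, without a header: chromosome, start, end and score. Per the submitters' processing notes, the build is mm9; aligner, peak caller and threshold: not given in the sources used here. Scores are the authors' deposited whole-number values and were used only within a list. Positions were read as 1-based with both ends included, the chromosome prefix was removed, and mitochondrial regions and a closing line without a region were skipped. Gaps are bases between edges, and every distance to HNF4A counts only the HNF4A peaks kept after the input rule. Peaks at most 12.5 kb (12500 bp) apart were joined, after dropping peaks within 10 kb of input. Regions named are the 5 clusters with most peaks (ties by summed score), the 5 highest-scoring peaks, the longest and shortest clusters, the 3 clusters whose lowest score is highest, and the cluster farthest from HNF4A; 2 clusters that tie for a last place were added after values were seen. The members and this rule were chosen with earlier results of these data known. No test was run, since each group has 1 library; shares carry 95% Wilson intervals. The joining was tested on simulated data. Gene annotation and sequence of build mm9 were not used here. Alternatives varied the joining distance, the input distance, score thresholds, cluster size and close peaks. Computations used Python 3.11.15 with scipy 1.17.1, pandas 2.3.3 and numpy 2.4.6, and figures matplotlib 3.10.9.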

Additional observations from a re-analysis of the deposited data

How the results depend on the processing

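Of 12 alternatives, 8 kept the number of clustered peaks without HNF4A within 1.5 times of 721, and 9 the number of clusters within 1.5 times of 312. Restricting FOXA2 to scores at or above its list's median left 147 peaks in 73 clusters, with a median score of 19 and a median width of 362 bp. Restricting HNF4A in the same way gave 1122 peaks in 494 clusters (medians 14 and 376 bp). Requiring 3 or more FOXA2 peaks left 211 peaks in 57 clusters (12 and 559 bp). Leaving out clusters with a wide peak, an alternative added after the data were seen, left 466 peaks in 224 clusters (14 and 360.5 bp). An input distance of 1 Mb, also added later, left 493 peaks in 227 clusters (14 and 371 bp). Median width was further 446.5 bp with no peaks dropped for input, 430 bp at an input distance of 1 kb and 375 bp at 50 kb. These medians of score and width moved outside the 95% interval of the reported median, 13 to 13 for score and 380 to 404 bp for width. Clusters of 3 or more numbered 17 without clusters that hold a wide peak, 30 at an input distance of 1 Mb and 100 with no peaks dropped for input, against 57. Counting FOXA2 peaks under 1 kb apart as 1 site gave 574 sites in 258 clusters, 38 of them with 3 or more sites. Counts move by construction where a setting keeps fewer or more peaks. Keeping only FOXA2 peaks at or above the median score raises their median score by construction. Leaving out clusters with a wide peak likewise lowers the median width. The cause of the other changes in score and width was not tested. No paired analysis was possible because each group has 1 library. With unknown depth and no replicates, how many clusters would be found again, and how many lack HNF4A only because of its threshold, is not known.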
